A study of Mus musculus and Homo sapiens with 10 samples.

Results

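The potassium channel genes of the mouse were examined for their place at the nuclear lamina in N2A cells, a mouse neuroblastoma line. Members were the protein-coding genes whose symbol is Kcn followed by a letter, with 1 gene, Kcnq1, left out by the rule; 93 such genes were found among 21523 protein-coding genes placed on chromosomes 1 to 19 and X of mm10. They encode the subunits of channels that let potassium ions cross the cell membrane and so set the resting potential and shape electrical firing. Voltage-gated pore subunits open on depolarisation, calcium- or sodium-activated ones respond to ions inside the cell, inward rectifiers pass current best near rest, and 2-pore-domain channels leak potassium at rest. Auxiliary subunits join the pores and change their gating or traffic. Lamina-associated domains (LADs) are stretches of chromosome that lie against the lamina under the nuclear envelope, and they are known as gene-poor and mostly silent chromatin.

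LADs were mapped by DamID, in which a protein fused to the adenine methyltransferase Dam leaves a methyl mark on nearby GATC sites. In the N2A cells, LaminB1-Dam was read on Nanopore instruments in 1 sample and on Illumina instruments in 2 samples. Dam without a partner was read once by each method. The other N2A samples, of 7 in all, are wild-type cells and 10% LaminB1-Dam as the label has it, and whether the latter entered the Nanopore list is not stated. A further 3 samples, of human HEK293T cells, concern CTCF and are not used here. Per the labels' protocols, Dam fusions were induced with 2 µg/mL doxycycline. The values are 2 consensus LAD lists, 1174 Nanopore LADs and 1149 Illumina LADs on these chromosomes, with borders on a 20 kb grid and no score per LAD. They give no value per sample, so no replicate error could be computed, the depth is unknown and no comparison below carries a test. They hold no expression data, so neither the cell type label nor the activity of any channel gene was checked.

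A gene was counted in a LAD when its midpoint lay inside one. By this rule 37 of the 93 genes (39.8%) lay in Nanopore LADs and 33 (35.5%) in Illumina LADs, against 28.9% and 25.4% of all protein-coding genes. All 33 genes in Illumina LADs were also in Nanopore LADs. The remaining 4 genes in Nanopore LADs had no Illumina LAD at their midpoint (4.3%, background 4.18%), none lay in an Illumina LAD alone (background 0.674%), and 56 lay in neither list (60.2%, background 70.4%). The share in both lists, 35.5%, had a background of 24.7%. Weighted by length, 69.8% of the 10.36 Mb of gene bodies summed over the family lay in Nanopore LADs and 67.2% in Illumina LADs, against 40.1% and 35.6% of the summed bodies of all protein-coding genes. Of the 93 genes, 25 lay entirely inside a LAD of both lists and 54 had no base in either. A border crossed 6 members by Nanopore and 9 by Illumina. Of all protein-coding genes only 3.63% and 3.15% were crossed, so lying wholly in or out is not particular to this family.

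Long channel genes were in LADs far more often than short ones. Of 13 genes of 300 kb and over, 12 (92.3%) lay in LADs of both lists, against 64.5% of all protein-coding genes of that length by Nanopore and 59.4% by Illumina. Of 9 genes of 100 to 300 kb, 6 (66.7%) lay in both, against 34.4% and 29.0%. Of 35 genes of 20 to 100 kb, 9 (25.7%) lay in LADs by Nanopore and 7 (20%) by Illumina, beside backgrounds of 21.5% and 17.8%. Of 36 genes under 20 kb the numbers were 10 (27.8%) and 8 (22.2%), beside 31.2% and 28.1%. Below 100 kb the family stood 2.2 to 5.9 percentage points from all genes of its length, above them in the class of 20 to 100 kb and below them under 20 kb. From 100 kb up it stood 27.9 to 37.7 points above them. The difference between members of 100 kb or more and shorter ones was 55.1 points by Nanopore and 60.7 points by Illumina. For all protein-coding genes it was 13.9 and 11.9 points. These differences are not matched for length, as the median of genes of 100 kb or more was 343 kb for members and 172 kb for all protein-coding genes. The median length was 186 kb for the 33 genes in both lists and 22.3 kb for the 56 in neither, whereas over all protein-coding genes those medians were 11.2 kb and 18.7 kb, the reverse order.

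**Figure D1:**
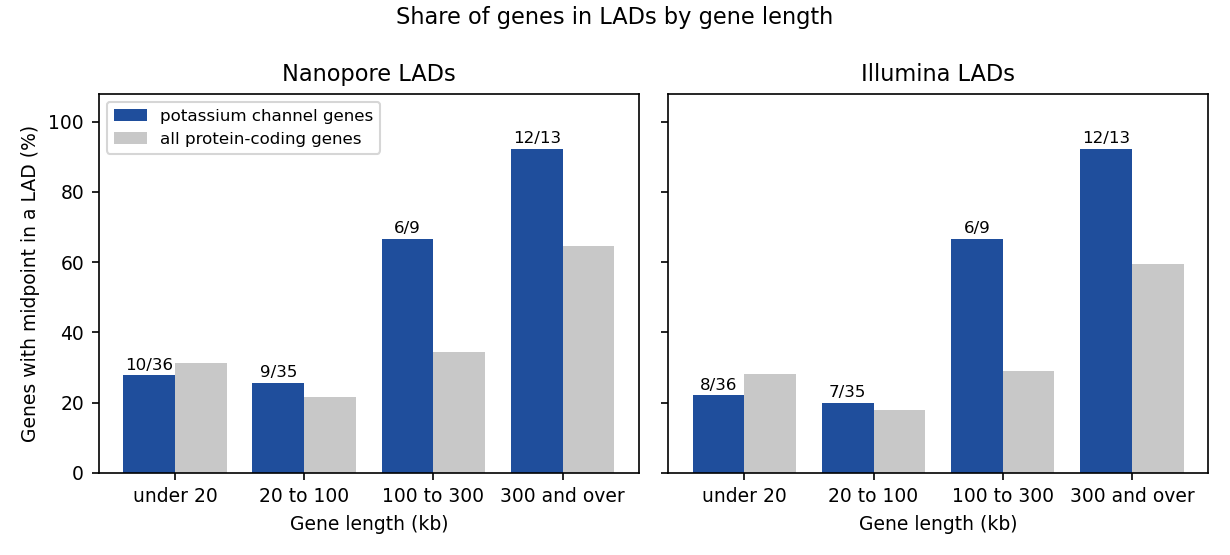
Percent of genes whose midpoint lies in a LAD (vertical axis) by gene length in kb (horizontal axis), for the Nanopore list (left) and the Illumina list (right); blue bars are the 93 potassium channel genes, with the number in LADs over the number in the class, and grey bars are all protein-coding genes. Blue bars start at 27.8% (Nanopore) and 22.2% (Illumina) for the shortest genes and reach 92.3% in both panels for the longest, and the grey bars end at 64.5% and 59.4%.

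The same order held inside most subfamilies, the groups of related genes that share a symbol up to the number. Of 21 subfamilies, 14 had members both in both lists and in neither. In 12 of these 14 the longest member lay in both lists, and in 11 every member in both lists was longer than every member in neither. The same count was not made for other gene families. Several groups are small, with 2 members each in Kcnb and Kcnt, and the genes are those already counted by length class. Among the 11, Kcnab, Kcnb, Kcnc, Kcnn, Kcns and Kcnt have 1 gene in both lists, and Kcnb, Kcnd and Kcnt have 1 in neither. In these the order rests on where 1 gene ranks in length. In Kcnh, which encodes the ether-a-go-go type of voltage-gated channel, the groups were of equal size and far apart: Kcnh1, Kcnh5, Kcnh7 and Kcnh8, of 280.12 to 490.88 kb, lay in both lists, and Kcnh2, Kcnh3, Kcnh4 and Kcnh6, of 18.3 to 32.1 kb, lay in neither. Kcnmb was the one subfamily with the opposite order, as its shortest member lay inside and its longest outside. In Kcna and Kcnj length did not separate the groups. Paralogs share descent, and 18 of the 93 genes stand in 8 loci with other members, so these counts are not counts of independent events.

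**Figure D2:**
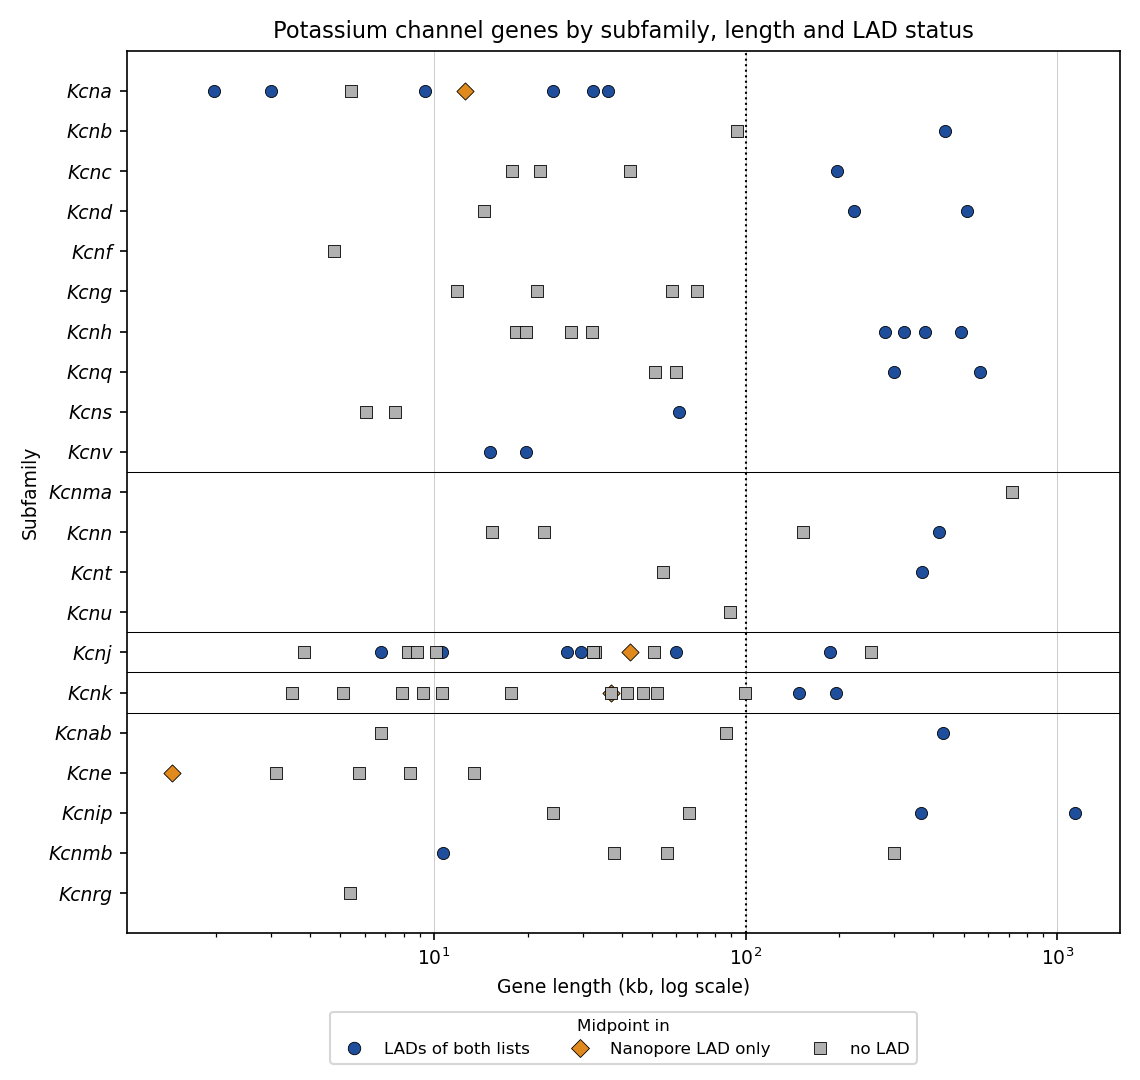
Each point is 1 of the 93 genes, placed by gene length in kb on a log scale (horizontal axis) and by subfamily (vertical axis); thin lines part the 5 functional classes, the dotted line marks 100 kb, and colour and shape give the lists that hold the midpoint. Blue points fill the right side, with Kcnma1, Kcnmb2, Kcnj6 and Kcnn3 as the grey squares of 100 kb or more, and Kcna and Kcnj are the subfamilies with most blue points on the left.

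Among the voltage-gated pore subunits, 20 of 39 (51.3%) lay in Nanopore LADs and 19 (48.7%) in Illumina LADs, beside 28.9% and 25.4% of all protein-coding genes. All 10 genes of this class of 100 kb or more lay in both lists: Kcnb2, Kcnc2, Kcnd2, Kcnd3, Kcnq3, Kcnq5 and the 4 long Kcnh genes. Over all protein-coding genes, 35.4% of those of 100 kb or more lay in both lists. The share was 58.9% for those of 300 kb and over, the length of most of the 10. Kcnd2 (chromosome 6, 21215346 to 21729805), which encodes a pore of the fast inactivating A-type current of dendrites, sat wholly inside a Nanopore LAD of 3.76 Mb and an Illumina LAD of 3.8 Mb. Kcnd3 (chromosome 3, 105451890 to 105674002), its close relative, had 75.7% of its body in a LAD of each list, and the short Kcnd1 on chromosome X lay in neither, its midpoint 529 kb from the nearest Nanopore border. Kcnb2 (chromosome 1, 15286925 to 15723751) lay wholly inside a LAD of each list, of 2.06 Mb by Nanopore and 2.0 Mb by Illumina; it encodes a delayed rectifier pore. Kcnc2 (chromosome 10, 112269898 to 112466304) was inside and Kcnc1 and Kcnc4 were outside; this subfamily serves fast spiking. Kcnq3 (chromosome 15, 65986374 to 66286636) and Kcnq5 (chromosome 1, 21398399 to 21962650) were inside; their products take part in the M-current, a slow current that restrains firing. The LAD around Kcnq3, 65880001 to 66560000, was the only one of those holding members in both lists whose 2 borders were identical in the lists.

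The Kcna genes encode Shaker-type pores, and all of them are short. Of 8 genes of 1.97 to 36.22 kb, 7 lay in Nanopore LADs (87.5%) and 6 in Illumina LADs (75.0%). Over all protein-coding genes these shares were 31.2% and 28.1% under 20 kb, and 21.5% and 17.8% from 20 to 100 kb. Kcna7 on chromosome 7 lay in neither list, in a stretch with 68 other protein-coding genes within 500 kb. Kcna5, Kcna1 and Kcna6 stand within 208.3 kb of chromosome 6 (126532551 to 126740834), at the end of 1 LAD that started at 125660001 in the Nanopore list and 125700001 in the Illumina list and ended at 126780000 in both. Kcna3, Kcna2 and Kcna10 stand within 159.6 kb of chromosome 3 (107036162 to 107195721), again at the end of a LAD. Kcna4 lay alone on chromosome 2 (107290589 to 107326804), 2069 kb from the nearest Nanopore border, the deepest midpoint in a LAD of the family. The 7 Kcna genes in Nanopore LADs thus stand at 3 places in the genome, and they were counted as 7 above.

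The silent subunits Kcnf, Kcng, Kcns and Kcnv do not form channels alone and change those of Kcnb. Kcnf1 and all 4 Kcng genes (Kcng1, Kcng2, Kcng3 and Kcng4) lay in neither list, though the midpoint of Kcng1 (chromosome 2, 168260117 to 168281533) was 9.18 kb from an Illumina border and 7.2% of its body was in that LAD. Kcns3 was in both lists and Kcns1 and Kcns2 in neither. Kcnv1, of 19.8 kb, lay inside a Nanopore LAD of 6.58 Mb on chromosome 15, and Kcnv2, of 15.1 kb, ended near the border of a LAD on chromosome 19, its midpoint 10.4 kb inside it in both lists.

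Of 8 calcium- and sodium-activated pore genes, the related Kcnu1 included, 2 lay in both lists (25.0%), near the 24.7% of all protein-coding genes. Kcnn2 (chromosome 18, 45268750 to 45685887), a small-conductance channel gene of neurons, and Kcnt2 (chromosome 1, 140245657 to 140614045), a sodium-activated channel gene, lay wholly inside. Kcnn1, Kcnn3, Kcnn4, Kcnt1 and Kcnu1 lay in neither. Kcnn3 (chromosome 3, 89520164 to 89672494) is of 152.33 kb, and its midpoint was 1124 kb from the nearest border of either list, with 40 other protein-coding genes within 500 kb. Kcnma1, the large-conductance BK channel gene (chromosome 14, 23292288 to 24005110), is the second longest of the family with 712.82 kb and the only one of 300 kb and over outside LADs by its midpoint. A LAD covered its 3′ end alone, 12.3% of the body by Nanopore, up to 23380000, and 29.1% by Illumina, up to 23500000. Its start site lay 625 kb from the Nanopore border and 505 kb from the Illumina border.

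Inward rectifier genes stood on both sides, and the longest of them, Kcnj6, was outside. Of 15 Kcnj genes, 6 (40%, beside 24.7% of all protein-coding genes) were in both lists (Kcnj1, Kcnj2, Kcnj3, Kcnj5, Kcnj8 and Kcnj16), Kcnj15 was in a Nanopore LAD only, and Kcnj4, Kcnj6, Kcnj9, Kcnj10, Kcnj11, Kcnj12, Kcnj13 and Kcnj14 were in neither. Kcnj5 and Kcnj1, the latter a gene of renal potassium secretion, lay side by side on chromosome 9 in 1 LAD of 1.12 Mb by Nanopore and 1.14 Mb by Illumina. Kcnj16 and Kcnj2 shared a LAD on chromosome 11, of 2.74 Mb and 1.8 Mb. The G protein-gated channels of heart and neurons are built from Kcnj3, Kcnj5, Kcnj6 and Kcnj9 products. Kcnj3 (chromosome 2, 55411798 to 55598145) and Kcnj5 were in both lists, and Kcnj6 (chromosome 16, 94744980 to 94997696) and Kcnj9 were in neither. At the ATP-sensitive channels, each pore gene stood with its sulfonylurea receptor gene: Kcnj8 and Abcc9 lay inside the same LAD of chromosome 6 (2.26 Mb by Nanopore, 0.58 Mb by Illumina), and Kcnj11 and Abcc8, neighbours on chromosome 7, lay in neither list.

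The 2-pore-domain genes were the class least often in LADs, 3 of 14 by Nanopore and 2 by Illumina. Kcnk2 (chromosome 1, 189207930 to 189402782), which encodes a mechanosensitive leak channel, and Kcnk10 (chromosome 12, 98429432 to 98578213), its relative, were the longest members and lay wholly inside both lists. Kcnk1 was in a Nanopore LAD only. Kcnk3, Kcnk4, Kcnk5, Kcnk6, Kcnk7, Kcnk9, Kcnk12, Kcnk13, Kcnk15, Kcnk16 and Kcnk18 were in neither, and Kcnk12 and Kcnk9 had their midpoint 28.1 kb and 45.2 kb from a Nanopore border. The shares of this class were 21.4% and 14.3%, beside 28.9% and 25.4% of all protein-coding genes, with 12 of its 14 members under 100 kb.

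Of 17 auxiliary and regulatory genes, 5 (29.4%) lay in Nanopore LADs and 4 (23.5%) in Illumina LADs, near the 28.9% and 25.4% of all protein-coding genes. Kcnip4 (chromosome 5, 48389503 to 49525122), the longest member with 1135.62 kb, and Kcnip1 were in both lists, and Kcnip2 and Kcnip3 in neither; their calcium-binding products join Kcnd pores. Kcnab1 (chromosome 3, 64949212 to 65378225) was in both, and Kcnab2 and Kcnab3 in neither; these are beta subunits of Kcna channels. Kcnmb1, a BK beta subunit gene of smooth muscle of 10.69 kb, was in both lists, and Kcnmb2, Kcnmb3 and Kcnmb4 were in neither. Kcnmb1 lies within the span of Kcnip1 on chromosome 11 (33629339 to 33993348), so both share 1 LAD, which started at 33760001 in the Nanopore list and 33780001 in the Illumina list and ended at 34560000 in both. Kcnmb2 (chromosome 3, 31901861 to 32200180), of 298.32 kb, had no base in a LAD, with 39.8 kb between it and the nearest Illumina LAD and 142 kb to the nearest Nanopore LAD. The single-span subunit genes Kcne1, Kcne2, Kcne3 and Kcne4 were in neither list, as was Kcnrg, and Kcne1l was in a Nanopore LAD only.

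Channel complexes hold proteins of other families, and 23 such genes and structural relatives were given by a list. Of these, 9 (39.1%) lay in both lists and 14 in neither, beside 24.7% of all protein-coding genes and 35.5% of the channel family in both. Dpp6 and Dpp10, which encode the large transmembrane partners of Kcnd pores, are of 910.14 and 1513.68 kb and lay in both, Dpp6 with 75.0% of its body by Nanopore and 86.0% by Illumina. The hyperpolarisation-activated channel genes Hcn2, Hcn3 and Hcn4, of 13.51 to 40.23 kb, were in neither. Cnga4, Cngb3, Lrrc38, Lrrc52, Adam22 and Abcc9 were also inside. Abcc8, Amigo1, Cnga1, Cnga2, Cnga3, Cngb1, Dlg1, Dlg4, Lgi1, Lrrc26 and Lrrc55 were also outside.

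The lists differed at the midpoint of 4 genes, in 2 ways. Kcna10 and Kcne1l lay just past an Illumina border that the Nanopore LAD overran. At Kcna10 (chromosome 3, 107183143 to 107195721) the Illumina LAD ended at 107180000, 3.1 kb before the gene, and the Nanopore LAD at 107200000, 1 grid step farther. At Kcne1l, also named Kcne5 (chromosome X, 142304753 to 142306198), the Illumina LAD ended at 142300000, 4.8 kb before the gene, and the Nanopore LAD at 142500000. Kcnj15 and Kcnk1 lay in Nanopore LADs that had no Illumina counterpart. Kcnj15 (chromosome 16, 95257558 to 95300260) was in a Nanopore LAD of 0.34 Mb, with the nearest Illumina LAD 1838 kb away. Kcnk1 (chromosome 8, 125993655 to 126030685) was in a Nanopore LAD of 0.4 Mb, with the nearest Illumina LAD 2374 kb away. With 1 consensus list per method, a difference between methods and a difference between samples cannot be told apart.

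The 250 bases before the annotated start, from RefSeq, were examined for GATC, the site Dam writes on (its letters read the same on both strands), and for CpG. Of the 93 genes, 69 were matched to such a window, 37 of them with the window at the 5′ end of the gene and 56 within 1 kb of it. A GATC was present in 15 of 27 windows of genes in both lists (55.6%) and in 12 of 38 of genes in neither (31.6%), beside 43.2% and 39.4% of all protein-coding genes of those groups. The median number of CpG was 7 for members in both lists and 9.5 for members in neither. Over all protein-coding genes these medians were 2 and 14. Windows of members inside LADs were richer in CpG than those of other genes there, with 10 or more CpG in 40.7% against 19.2%, and those outside were poorer, with 50% against 63.3%. No test was made of these differences. The genes compared were not matched for length: in both lists the median was 186 kb for members and 11.2 kb for all protein-coding genes. Some windows also lie far from the 5′ end of the gene, at Kcnip4 by 239463 bases. Among windows within 1 kb of it, the median CpG was 7.5 for 22 members in both lists and 9 for 31 in neither.

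These windows are shown for genes at both kinds of difference, each with another member nearby that the lists call alike. Kcna3 is in both lists and Kcna10 in the Nanopore list only, on the plus strand of mm10 at chr3:107035912-107036161 and chr3:107182893-107183142. Kcnj6 is in neither list and Kcnj15 in the Nanopore list only, on the minus strand at chr16:94997697-94997946 and the plus strand at chr16:95257308-95257557. The assembly is GRCm38.p6, on which mm10 rests, and capitals mark GATC.
Kcna3: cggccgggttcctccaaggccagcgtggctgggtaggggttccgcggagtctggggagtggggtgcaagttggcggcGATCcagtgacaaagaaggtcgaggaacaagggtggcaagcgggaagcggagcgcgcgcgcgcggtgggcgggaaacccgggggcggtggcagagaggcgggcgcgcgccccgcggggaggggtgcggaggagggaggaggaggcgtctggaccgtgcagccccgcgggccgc
Kcna10: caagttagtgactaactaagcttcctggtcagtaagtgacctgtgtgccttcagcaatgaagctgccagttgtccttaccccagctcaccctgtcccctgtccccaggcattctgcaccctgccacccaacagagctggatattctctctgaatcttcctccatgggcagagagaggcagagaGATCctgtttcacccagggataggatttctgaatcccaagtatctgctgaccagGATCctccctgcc
Kcnj6: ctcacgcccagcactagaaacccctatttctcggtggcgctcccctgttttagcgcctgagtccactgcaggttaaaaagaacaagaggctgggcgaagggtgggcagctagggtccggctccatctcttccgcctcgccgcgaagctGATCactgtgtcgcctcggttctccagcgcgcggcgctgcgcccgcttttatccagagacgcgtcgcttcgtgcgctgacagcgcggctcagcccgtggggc
Kcnj15: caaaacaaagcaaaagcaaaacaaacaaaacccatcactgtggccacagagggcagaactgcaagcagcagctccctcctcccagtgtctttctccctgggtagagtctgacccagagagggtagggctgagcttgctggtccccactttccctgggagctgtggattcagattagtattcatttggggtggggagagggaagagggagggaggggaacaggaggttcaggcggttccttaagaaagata
The Kcna3 window holds 1 GATC and 31 CpG, and the Kcna10 window 2 GATC and 0 CpG. The Kcnj6 window holds 1 GATC and 26 CpG, and the Kcnj15 window 0 GATC and 1 CpG. Of the starts shown, both in a Nanopore LAD only were poor in CpG. The CpG-rich Kcna3 lay in LADs and the CpG-rich Kcnj6 did not. Among genes in a Nanopore LAD only that are not shown, Kcnk1 had 0 CpG and Kcne1l had 9, beside a median of 8 over all members. A window of this size is far below the 20 kb grid, and GATC was not counted over stretches of that size. Whether the number of GATC bears on how a LAD was called was not tested.

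Start sites, taken as the 5′ end of the gene, gave nearly the same picture as midpoints in these 69 genes. The start lay in a Nanopore LAD in 29 (42.0%, background 28.7%) and in an Illumina LAD in 25 (36.2%, background 25.4%). Midpoint and start differed for Kcnh1 in both lists, for Kcns3 by Nanopore and for Kcnh7 by Illumina. The start of Kcnh1 (chromosome 1, 192189144 to 192510159) was 10.9 kb outside the Nanopore LAD and 50.9 kb outside the Illumina LAD, though 96.6% and 62.3% of its body lay inside. The start of Kcns3 (chromosome 12, 11090202 to 11151168) was 11.2 kb outside the Nanopore LAD and 8.8 kb inside the Illumina LAD. The start of Kcnh7 (chromosome 2, 62693410 to 63184287) was 776 kb inside the Nanopore LAD and 64.3 kb outside the Illumina LAD, with 100% and 86.9% of the body inside.

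A LAD border ran through 6 of the 93 genes by Nanopore and 9 of the 93 by Illumina, 10 genes in all. Over all protein-coding genes the shares were 3.63% and 3.15%, but most of those are shorter (median 17.4 kb against 32.5 kb here). All crossed members except Kcng1 and Kcns3 are of 100 kb or more, and no share was computed for genes of like length. The 6 crossed by Nanopore were Kcnab1, Kcnd3, Kcnh1, Kcnip1, Kcnma1 and Kcns3. In the Nanopore list the start lay inside the LAD and the 3′ part outside for Kcnab1, Kcnd3 and Kcnip1, and the reverse held for Kcnh1, Kcnma1 and Kcns3. The Illumina LAD at Kcnh1, 192240001 to 192440000, lay within the gene, so both ends of Kcnh1 were outside it. By Illumina a border also crossed Kcnh5, Kcnh7, Kcnip4 and Kcng1, and Kcns3 was wholly inside. The body share of Kcnip1 was 64.1% and 58.6%, that of Kcnab1 was 91.1% and 81.8%, and that of Kcnip4 was 100% and 95.6%. The border inside Kcnd3 lay at 105620000 in both lists. Nanopore gave the higher share in 6 of these 10 genes, Illumina in Kcnma1, Kcns3 and Kcng1, and Kcnd3 had the same share.

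**Figure D3:**
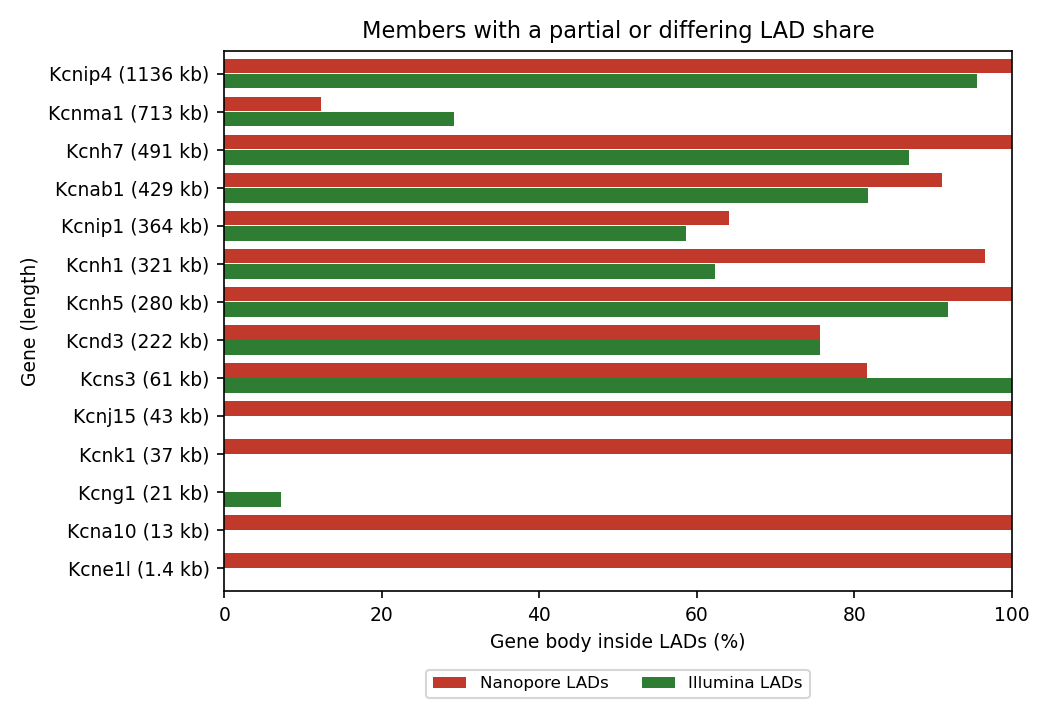
Percent of the gene body inside Nanopore LADs (red bars) and Illumina LADs (green bars) for the 14 genes with a partial or differing share, ordered by length in kb (given beside the symbol). The 4 genes with a red bar at 100% and no green bar are Kcnj15, Kcnk1, Kcna10 and Kcne1l; Kcnma1 reaches 12.3% and 29.1%, and Kcnd3 75.7% in both.

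The 33 genes in both lists lay in 27 different LADs of each list. Those LADs were wide, with a median of 1.6 Mb by Nanopore and 1.26 Mb by Illumina, against medians of 0.69 and 0.66 Mb over all LADs; a wide LAD covers more genes, so this contrast follows in part from the choice of LADs that hold a gene. For 19 of the 33 genes, several of which share a LAD, both borders of the LAD agreed within 40 kb. Neither this count nor the next was made over all protein-coding genes or all LADs. Of the 27 Nanopore LADs, 6 met more than 1 Illumina LAD. Kcnk10, for instance, lay in a Nanopore LAD of 6.74 Mb and an Illumina LAD of 0.32 Mb, yet 98.5% of the former was in Illumina LADs. At Kcnj8 that share was 97.3%. It was lower at Kcnh7 (64.2%), at Kcnj16 and Kcnj2 (73.7%) and lowest at Kcnh1 (43.5%), where the Illumina LAD was of 0.2 Mb and the Nanopore LAD of 0.46 Mb.

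**Figure D4:**
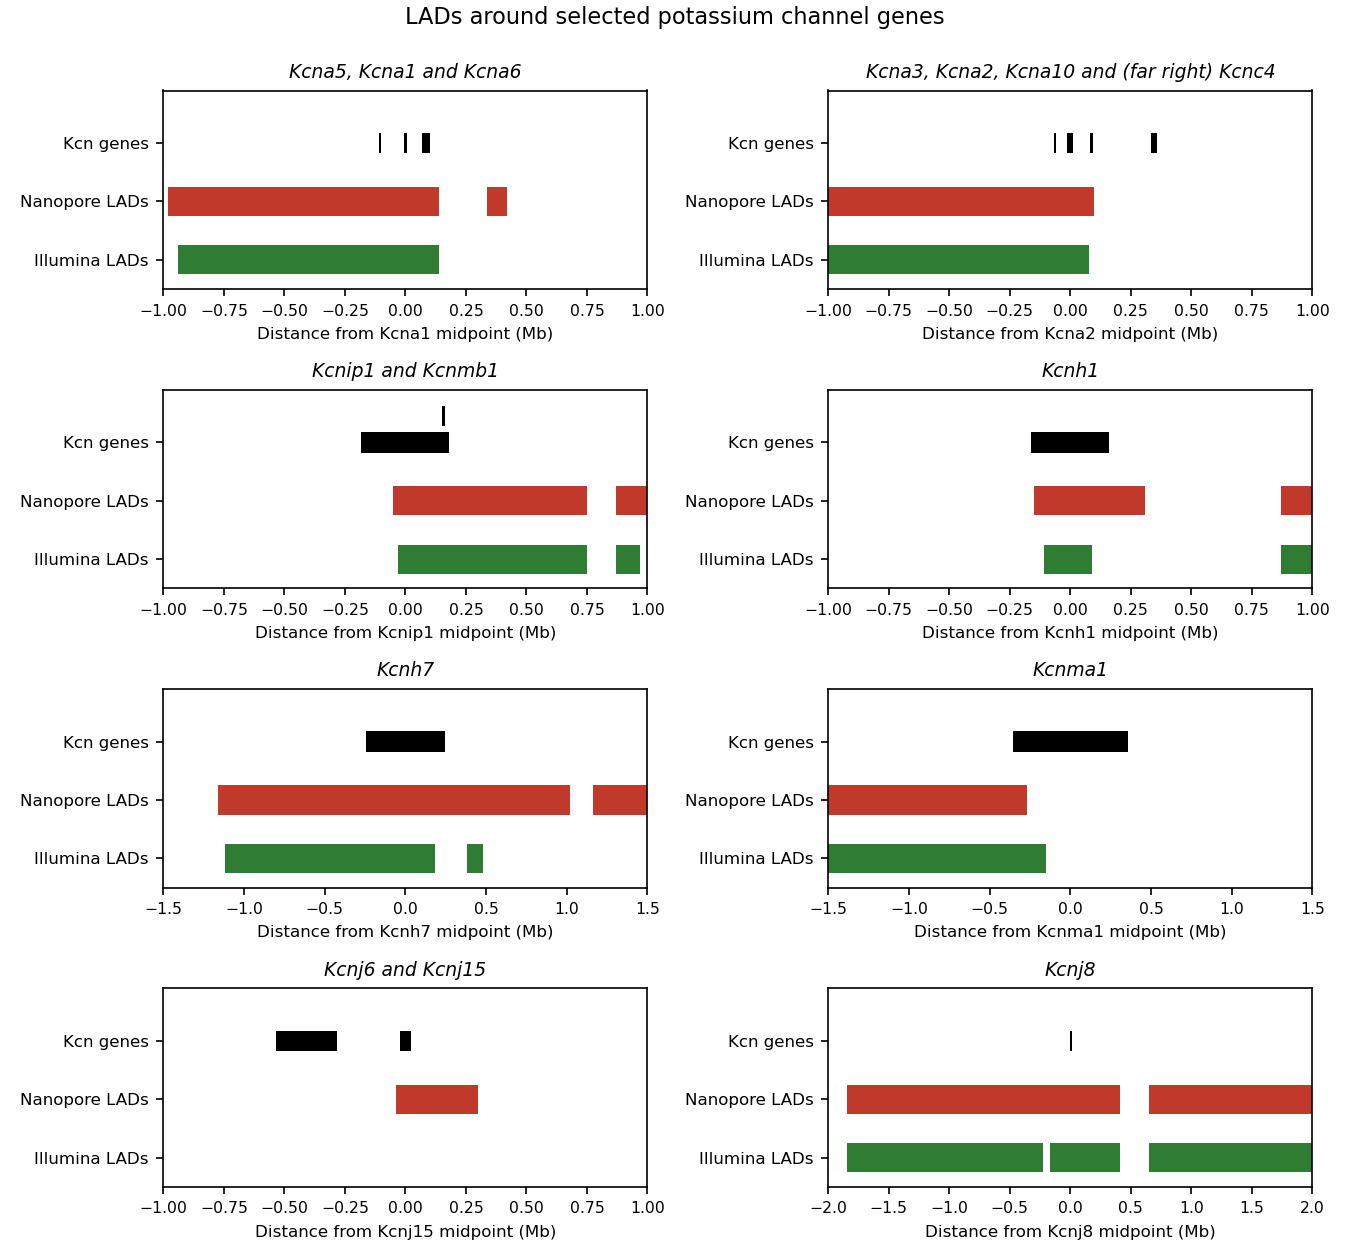
LADs of the Nanopore list (red) and the Illumina list (green) around 8 groups of potassium channel genes (black, top row), with distance in Mb from the midpoint of the named gene on the horizontal axis; Kcnmb1 is drawn above Kcnip1, within whose span it lies. The panels show both Kcna groups at the end of a LAD, Kcnma1 with its 3′ end alone in a LAD, Kcnj15 with no Illumina LAD in view and Kcnj8 beside a narrow gap in the Illumina list.

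Of the 8 loci with more than 1 member within 200 kb, 4 had all members in both lists and 3 had all in neither (Kcne2 with Kcne1, Kcnj9 with Kcnj10, Kcnk5 with Kcnk16). The locus of Kcna3, Kcna2 and Kcna10 was mixed. All 8 loci span 53.6 to 364.0 kb, less than the median width of all Nanopore LADs, 0.69 Mb. No rate of like calls was computed for other neighbouring genes. The midpoints of the genes in both lists lay 10.4 to 2070 kb inside the Nanopore LAD, with a median of 265 kb, and 2 of the 33 lay within 50 kb of a border. The midpoints of the genes in neither list lay 28.1 to 2940 kb from the nearest Nanopore LAD, with a median of 631 kb. Among these 56, 3 (Kcng1, Kcnk12 and Kcnk9) lay within 50 kb and 18 lay over 1000 kb away, the farthest being Kcnj4. Distances to borders, inside and outside, were computed for members alone, so no share over all protein-coding genes stands beside these counts.

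**Figure D5:**
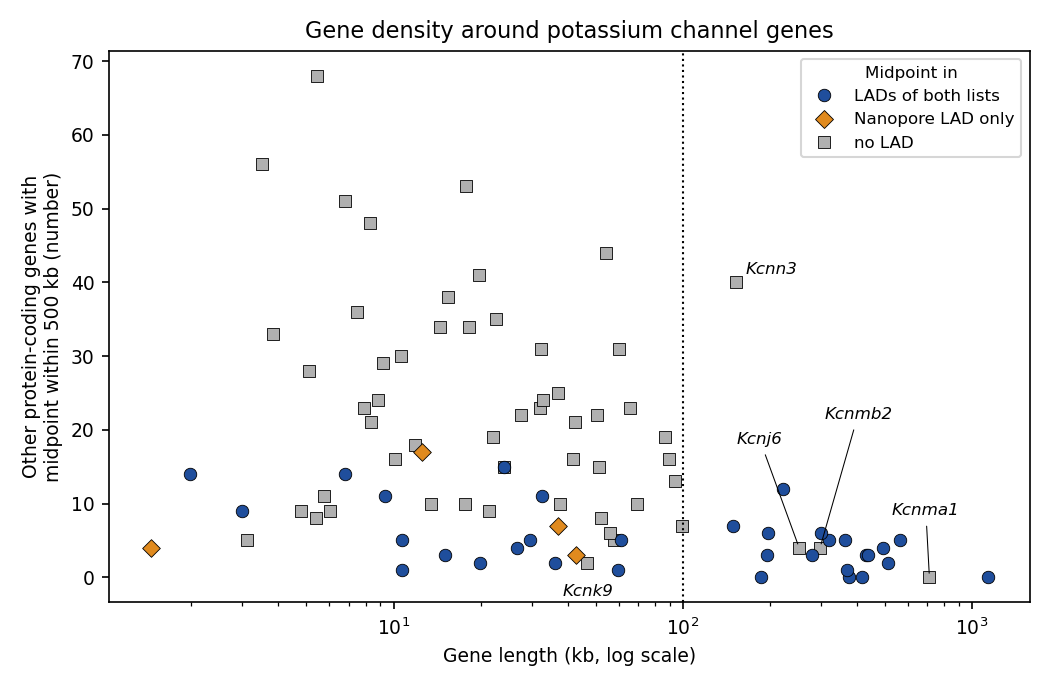
Each point is 1 of the 93 genes, placed by gene length in kb on a log scale (horizontal axis) and by the number of other protein-coding genes whose midpoint lies within 500 kb (vertical axis); colour and shape give the lists that hold the midpoint and the dotted line marks 100 kb. Genes in both lists have 15 neighbours or fewer, and genes outside reach 68, with Kcnma1, Kcnmb2, Kcnj6 and Kcnk9 as outside genes in sparse surroundings.

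The surroundings of the genes also differed with LAD status. Members in both lists had 0 to 15 other protein-coding genes within 500 kb (median 4), and members in neither had 0 to 68 (median 21). Over all protein-coding genes, which are shorter where they lie in both lists, the medians were 12 and 17. Among members under 100 kb the median was 5 for the 15 in both lists and 21.5 for the 52 in neither. Among members of 100 kb or more it was 3 for the 18 in both, the same as for all protein-coding genes of that length in both lists, and 4 for the 4 in neither, of which Kcnn3 had 40, Kcnj6 and Kcnmb2 had 4 each and Kcnma1 had 0. The parts of gene length and gene density in the LAD status of these genes were not tested.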

How the data were processed

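The authors deposited consensus LADs of N2A cells as 2 lists of interval positions, 1210 intervals by Nanopore and 1190 by Illumina, with no other value per interval. Per the submitters' processing notes, the tools included bedtools, deepTools, SAMtools and minimap2 and the builds hg38 and mm10. Their roles and versions, the LAD caller with its thresholds and the samples that entered a list were not given in the sources used here. All borders (100%) lay on a 20 kb grid, which limits the precision of every distance. Scaffold names place both lists on mm10.

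Gene positions and promoter windows came from RefSeq tables of GRCm38.p6; genes listed before 3 Mb were left out, since placed sequence starts there. A gene was counted by its midpoint, and strand came from the promoter windows. Of the family, 24 genes had no such window. Length classes were parted at 20, 100 and 300 kb. The members, the list of partner genes and the classes were chosen with earlier results of these data known. Any member could be named, and a few genes, though counted, are not reported here by name; coordinates were given by rule for genes that differ between the lists, the 10 longest, long genes crossed by a border, neighbours with different calls and the smaller group of each subfamily, and for a few further genes to give their place. The promoter windows shown and Kcnk9 and Kcnk12 were chosen after their values were seen. Alternatives changed the counting rule, the LADs used, the chromosomes, the count per locus and the length that parts long from short. The placement code was tested on simulated data. Work was done in Python 3.11.15 with matplotlib 3.10.9, scipy 1.17.1, pandas 2.3.3 and numpy 2.4.6. The human CTCF peaks were not used here.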

Additional observations from a re-analysis of the deposited data

How the results depend on the processing

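The counts of genes in Nanopore LADs, in Illumina LADs and in both lists stayed within 1.5 times under every alternative run (Nanopore 29 to 38, Illumina 25 to 35, both 24 to 34; the lowest from the 69 genes with a start site). Leaving out LADs under 100 kb, merging LADs over gaps of 40 kb or less, or counting genes with at least 50% of the body in LADs changed none of the 6 results. When the whole body had to lie in 1 LAD, genes in 1 list only rose from 4 to 8 and the Illumina difference between long and short genes fell to 28.9 points, as every gene crossed by an Illumina border except Kcng1 is of 100 kb or more. With long genes set at 50 kb or more, the difference between long and short was 23.7 points by Nanopore and 30.8 by Illumina, as of the members between 50 and 100 kb only Kcnj16 and Kcns3 are in LADs. With 1 member per locus (83 loci) it was 62.1 and 67.1 points, and with start sites 43.7 and 44.4. No direction turned. No paired analysis was possible because the lists carry no value per sample or replicate. No stricter LAD threshold could be tried beyond width, as LADs have no score, and leaving out a replicate could not be run for the same reason as the pairing.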

Other observations

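Of the members in neither list, 4 stood in LAD-rich surroundings, with over 50% of the 2 Mb around the midpoint in Nanopore LADs. Among them, Kcnj10, a glial channel gene, had 60.9% in each list, its neighbour Kcnj9 59.3% in each, and Kcnmb4 51.7% by Nanopore and 37.7% by Illumina. In the other direction, 2 members in both lists had under 50% of the 2 Mb in Nanopore LADs, Kcnh1 with 29.5% (16.5% by Illumina) and Kcnip1 with 46.6% (44.0%). The median over members was 77.3% for genes in both lists and 15.6% for genes in neither, and over all protein-coding genes 78.0% and 20%. Around Kcnj15 and Kcnk1 the Nanopore list covered 17.0% and 20% of the 2 Mb and the Illumina list 0%.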
